A study of Mus musculus with 96 samples.

Results

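Rab GTPases, the small GTP-binding proteins that steer vesicles between the membranes of a cell, were followed at the transcript level in mouse bone marrow dendritic cells given 1 of 5 ligands of Toll-like receptors. The members were the genes whose only annotated symbol is Rab, a number and at most 1 letter. The array held 40 such symbols. Of these, 34 lay above the lower limit of the values, an intensity of 20, on at least 1 array, and they are 34 of the 10543 items (7741 named genes and 2802 probe sets without a single gene name) that passed the same limit. The other 6, Rab4a, Rab17, Rab27a, Rab27b, Rab37 and Rab40b, stood at 20 on every array, so nothing about their change could be measured. A looser reading of the rule, every symbol that begins with Rab and a digit, would add Rab11fip5, Rab26os, Rab3il1 and Rab5if, none of which is a Rab GTPase. Rab11fip5 and Rab3il1 are treated below among the regulators.

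The cells were primary dendritic cells grown from mouse bone marrow, and the labels give no strain, age or sex. The series' design names the ligands LPS, pIC, PAM, CpG and GRD, written Lps, Pic, Pam, Cpg and Grd here as in the sample titles. The labels do not spell these out, and textbook use of the names gives lipopolysaccharide, sensed by TLR4, poly(I:C), a mimic of double-stranded RNA sensed by TLR3, a lipopeptide sensed by TLR2, unmethylated CpG DNA sensed by TLR9 and gardiquimod, a small molecule sensed by TLR7. There were 9 times between 0.5 h and 24 h and 2 arrays at each, apart from single Cpg arrays at 16 h and 24 h, so Cpg had 16 arrays and every other ligand 18. The unstimulated group, called Control, had 8 arrays, 1 at each of 8 times between 0 h and 24 h. Nothing in the labels tells if replicate arrays stem from separate cultures or mice, and the p-values thus reflect the spread among these arrays alone, which may be technical.

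A Rab protein is switched on by an exchange factor that loads GTP and switched off by a GTPase-activating protein. In its active form it sits on particular membranes and recruits effectors, such as tethers, motors and kinases, that move or fuse the vesicle. Dendritic cells depend on this traffic to mature phagosomes, to send receptors such as TLR4 to lysosomes or back to the surface, to load peptides on MHC molecules and to secrete cytokines.

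Times were pooled into an early (0.5 to 2 h), a middle (4 to 8 h) and a late (12 to 24 h) window of 6 arrays per ligand (late Cpg: 4), and each window was compared with the same 8 Control arrays. The contrasts against Control therefore share these arrays and are not independent of one another. To be called, a gene needed a difference of log2(value + 1) of at least 1 in size and, in limma with Benjamini-Hochberg adjustment over all 10543 items, an adjusted p under 0.05. Values after ± are the standard error of the model for a log2 difference and the SD for an intensity. All intensities are on the linear scale of the deposited values, and levels of different probe sets are not compared with each other. In these bulk samples fewer cells of a type and less RNA per cell cannot be told apart.

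Of the 9 dendritic cell markers measured, all lay above the limit in Control, Cd74 at 7645.8 to 8412.5, but Flt3 only at 26.1 to 32.8 and Zbtb46 at a median of 42.3. All 5 macrophage markers were also above it, with a summed level of 8423 to 11430 in Control and 6344 to 14640 over the ligand arrays. The 7 neutrophil markers summed to 5172 to 8190 in Control, and to 1207 to 9716 with Lps, 3917 to 11350 with Pic, 2284 to 8944 with Pam, 1598 to 9000 with Cpg and 2177 to 8589 with Grd. Tcf4, the 1 plasmacytoid marker measured, ranged from 46.7 to 83.1 in Control and reached 592.7 with Lps. Markers of B, T, NK, mast and erythroid cells were at 20 in all Control arrays. The part of these shifts in the Rab results was not tested. Replicate arrays correlated with r from 0.9852 to 0.9982 across probe sets. All arrays lay on 1 plate, where Lps, Pic, Pam and Grd filled columns 1 to 9, a column per time and separate rows per ligand, and Cpg and Control filled columns 10 to 12, so plate place cannot be told apart from time or ligand.

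Of the 34 Rab genes, 7 (20.6%) were called in at least 1 of the 15 window contrasts, against 23% of all items. Rab20, Rab32, Rab12, Rab22a and Rab33a rose, and Rab31 and Rab7b fell. Rab33a passed the limit mainly through the Pam arrays, so its call is not independent of its place among the 34. The same holds for its share in the Pam and ligand-pair counts below. In 10 further genes the largest difference was between 0.5 and 1, and in 17 (50%, against 41.7% of all items) it stayed under 0.5 in every window.

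In the early window, 4 of the 170 pairs of a Rab gene and a ligand were called higher (2.35%, against 1.33% of all items), all of them Rab20, and 0 were called lower (against 0.4%). With no minimum size, 23 pairs were higher (against 16.9%) and 71 lower (against 30.2%) at an adjusted p under 0.05 in limma, and 79 were lower at an unadjusted p under 0.05 (46.5%, against 33.4%). Control had no array at 0.5 h or 16 h. Comparison with Control arrays of the same times therefore also leaves out the ligand arrays of those times. In that comparison 5 early pairs were called lower (2.94%, against 0.368% of all items). Without the 0.5 h arrays, against all Control arrays, 4 were (2.35%, against 0.823%). All were of Rab7b and Rab40c, and these settings are not separate evidence. In the middle window 15 pairs were higher (8.82%, against 5.08%) and 5 lower (2.94%, against 4.89%). In the late window 10 were higher (5.88%, against 4.07%) and 1 lower (0.588%, against 3.5%). Under the looser reading of the rule, which adds the effector gene Rab11fip5 and the exchange factor gene Rab3il1, 14 of 190 middle pairs (7.37%) and 11 of 190 late pairs (5.79%) were lower, above the shares of all items. With no minimum size 61 late pairs were higher (against 25.2%) and 47 lower (against 33.9%). On the same basis the split in the middle window was 76 higher to 50 lower, or 44.7% and 29.4% of the pairs, where all items split 24.6% to 43.5%. The median difference of the 34 genes in the middle window was 0.18 with Lps (against -0.11 for all items), 0.07 with Pic (-0.10), 0 with Pam (-0.03), 0.16 with Cpg (-0.08) and 0.11 with Grd (-0.06). Early medians were -0.12 with Lps (against -0.03), -0.08 with Pic (-0.01), -0.16 with Pam (-0.04), -0.08 with Cpg (-0.04) and -0.04 with Grd (-0.01). Late medians were 0.04 with Lps (against -0.02), 0.13 with Pic (-0.03), -0.01 with Pam (-0.01), 0.01 with Cpg (-0.01) and 0.05 with Grd (-0.01). These counts and medians describe a chosen list. With arrays centred on their median, which moves the median of all items in the Lps middle window by 0.19, the middle split at adjusted p alone was 98 higher to 31 lower (57.6% and 18.2%, against 41.1% and 32.8% of all items).

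By ligand, the early window held 1 Rab gene called higher with Lps (against 1.57% of all items), Pam (1.65%), Cpg (1.85%) and Grd (0.948%) and 0 with Pic (0.617%). It held 0 called lower with each ligand, where all items gave 0.55% with Lps, 0.247% with Pic, 0.74% with Pam, 0.294% with Cpg and 0.171% with Grd. In the middle window 4 genes were higher and 2 lower with Lps (against 7.05% and 8.22%), 3 and 0 with Pic (4.93% and 2.79%), 3 and 1 with Pam (3.48% and 4%), 3 and 1 with Cpg (5.4% and 5.53%), and 2 and 1 with Grd (4.53% and 3.92%). In the late window 2 were higher with every ligand (against 4.7% with Lps, 4.53% with Pic, 3.42% with Pam, 3.86% with Cpg and 3.84% with Grd). Late falls numbered 1 with Lps (against 4.42%) and 0 with Pic (4%), Pam (2.97%), Cpg (3.23%) and Grd (2.88%). The 2 late risers were Rab20 and Rab32, except with Pic, where they were Rab20 and Rab12.

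**Figure D1:**
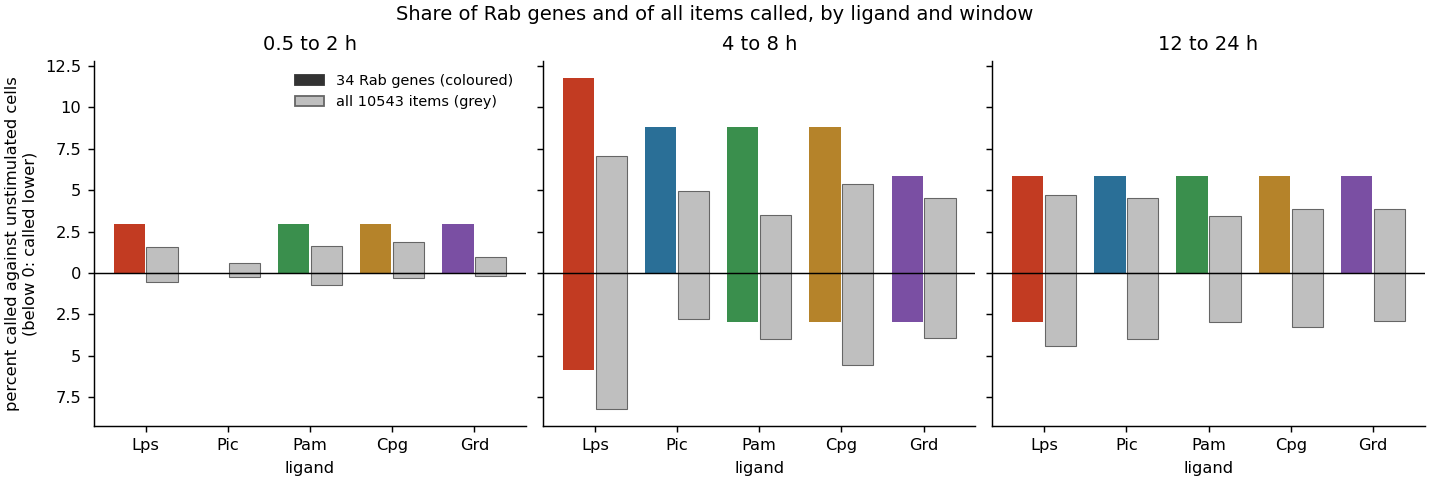
Percent of the 34 Rab genes (coloured bars) and of all 10543 items (grey bars) called against Control, for each ligand (horizontal axis) in the 3 time windows; bars below 0 are genes called lower. With 34 genes, 1 gene is 2.94%. At 0.5 to 2 h 0 Rab genes were called lower with any ligand, and at 4 to 8 h of Lps 11.8% were called higher and 5.88% lower.

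**Figure D2:**
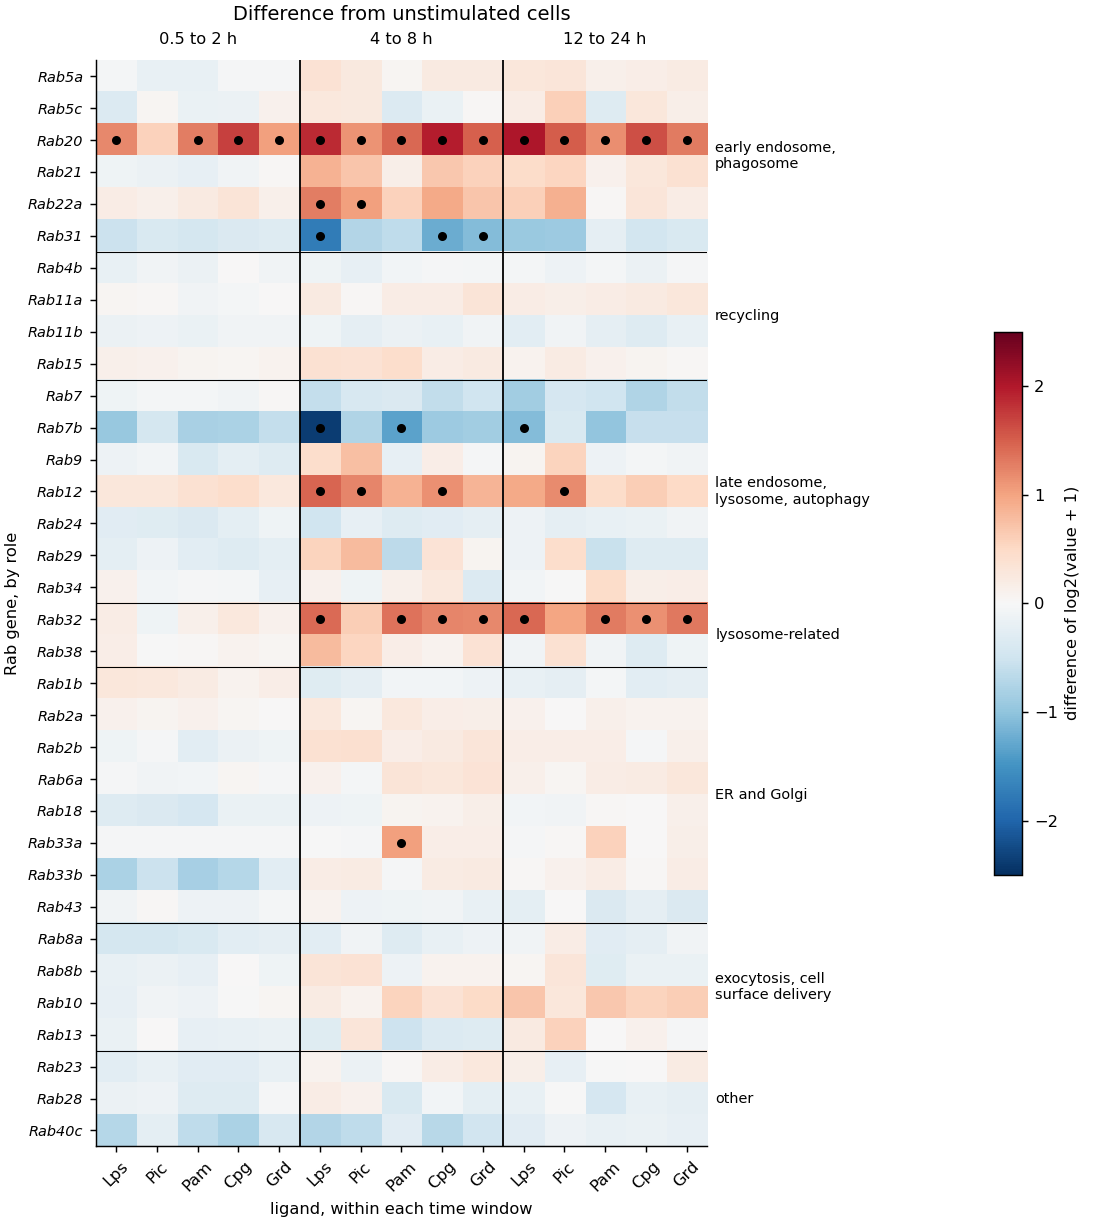
Difference of log2(value + 1) between each ligand window and the 8 Control arrays (colour, red higher and blue lower) for the 34 Rab genes, ordered by role; columns are the 5 ligands within each window, and a black dot marks a call. The darkest cells are Rab20, Rab12 and Rab32 on the red side and Rab7b and Rab31 on the blue side, while most rows are pale.

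Among the 6 genes of the early endosome and phagosome, 2 rose, 1 fell and 3 (Rab5a, Rab5c and Rab21) were never called. Of all items, 23% were called in at least 1 window. The role groups here and below hold 2 to 8 genes, too few to set one role against another. Rab21, a GTPase of early endosomes, reached 0.86 in the middle window of Lps, where a second probe set stood at 1.08 and was called, as was the first with centred arrays (1.05). Rab20 encodes a GTPase of endosomes and phagosomes that takes part in phagosome maturation. Its Control arrays had a lowest, median and highest intensity of 96.8, 125.4 and 142.4. With Lps the 6 arrays of the middle window ran from 332 over a median of 474 to 546, and those of the late window from 444 over 486 to 565. With Pic the middle arrays ran from 164 over 260.0 to 435. All these arrays lay above the highest Control array, so the groups did not overlap.

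Rab20 rose by 1.86 ± 0.08 in the middle and 2.02 ± 0.08 in the late window of Lps (adjusted p = 2.7e-28 and 1.5e-29 in limma), the largest rise of any member in any window. In the middle window it rose by 1.13 with Pic, 1.44 with Pam, 1.97 with Cpg and 1.49 with Grd, and in the late window by 1.51, 1.16, 1.62 and 1.29 with these ligands in turn. In the early window it rose by 1.20 with Lps, 1.27 with Pam, 1.70 with Cpg and 1.03 with Grd, and stood at 0.57 with Pic, which was not called. Each called window had a standard error of 0.08 or 0.09, and 6 of 6 arrays (4 of 4 for Cpg in the late window) above the highest Control array.

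The highest mean of Rab20 came at 2 h with Lps, Pam, Cpg and Grd and at 8 h with Pic. With Cpg the 2 arrays read 662 and 440 at 1 h and 733 and 642 at 2 h, where the Control arrays at these times read 136.9 and 142.4. With Lps they read 264 and 231 at 1 h, 508 and 580 at 2 h, 332 and 378 at 4 h and 495 and 546 at 8 h. With Pic they read 142 and 140 at 1 h, 276 on both arrays at 2 h, 172 and 164 at 4 h and 435 on both at 8 h. With each of the 5 ligands both arrays at 4 h lay below both at 2 h. The early calls of Lps, Pam and Grd rest on the 2 h arrays, since without them the differences were 0.73, 0.94 and 0.63, and the Pic call of the middle window rests on the 8 h arrays, without which it was 0.78. The early Grd call was also lost with a linear Control trend or a pseudocount of 16 (0.95 each) and without Control replicate 2 or 5 (1.00, just under the threshold, and 0.98).

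Rab22a is known from early and recycling endosomes, including the traffic of MHC class I molecules. Its Control arrays ran from 189 over 241 to 283, the 6 middle arrays of Lps from 506 over 586 to 632, and those of Pic from 372 over 487 to 606. Neither ligand's arrays overlapped the Control arrays. Rab22a rose by 1.28 ± 0.05 with Lps and 1.02 ± 0.05 with Pic (adjusted p = 6.6e-28 and 3.3e-23 in limma), and stood at 0.94 with Cpg, 0.69 with Grd and 0.57 with Pam. This rests on 1 of 3 probe sets: the others stood at 0.08 and 0.06 with Lps and 0.34 and 0.59 with Pic, and with the mean of all 3 the differences were 0.47 and 0.65, neither called. The Pic call was also lost without the 8 h arrays (0.87), without Control replicate 5 (0.98) or the arrays labelled replicate 1 (0.99), with a pseudocount of 16 (0.98) and against Control arrays of the same times (0.99).

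Rab31, a close relative of Rab22a that works between the trans-Golgi network, endosomes and phagosomes, went the other way. Its Control arrays ran from 261 over 328 to 425, against 77.7 over 99.1 to 123 in the middle window of Lps, 101 over 158 to 176 with Cpg and 122 over 163 to 186 with Grd. All of these ligand arrays lay below the lowest Control array. Rab31 fell by 1.75 ± 0.07 in the Lps arrays, 1.24 ± 0.07 in those of Cpg and 1.09 ± 0.07 in those of Grd (adjusted p = 1.2e-29, 6.6e-23 and 1.7e-20 in limma), while Pic and Pam stood at -0.73 and -0.63 and were not called. The lowest mean with Lps, Cpg and Grd came at 6 h, and with Pic both arrays were lower at 8 h (168 and 164) than at 6 h (196 and 204). By the late window the differences were -0.93 (Lps), -0.90 (Pic), -0.45 (Cpg), -0.38 (Grd) and -0.23 (Pam), none called. The Grd call was lost without the 6 h arrays (-0.97) and with arrays centred on their median (-0.99). Against Control arrays of the same times, which leaves out 16 h, the late values were -1.26 with Lps and -1.09 with Pic, both called. Without the 16 h arrays, against all Control arrays, the late Lps value was -1.06 and called.

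The 250 bases before the annotated start of 3 members are shown so that the start regions of Rab20 and Rab32, called higher in 14 and 8 of 15 windows, can be set beside that of Rab31, called lower in 3. They are RefSeq sequences of GRCm38.p6, given 5′ to 3′ on the gene's strand, which is the minus strand for all 3: Rab20 at chr8:11478641-11478890, Rab32 at chr10:10558208-10558457 and Rab31 at chr17:65772753-65773002. Capitals mark an E-box (CACGTG), and GC boxes (GGGCGG) are not marked.
Rab20: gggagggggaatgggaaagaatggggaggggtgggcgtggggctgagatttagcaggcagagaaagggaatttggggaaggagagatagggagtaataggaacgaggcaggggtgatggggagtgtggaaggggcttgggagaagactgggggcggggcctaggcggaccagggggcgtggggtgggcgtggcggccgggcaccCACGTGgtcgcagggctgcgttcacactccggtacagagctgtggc
Rab32: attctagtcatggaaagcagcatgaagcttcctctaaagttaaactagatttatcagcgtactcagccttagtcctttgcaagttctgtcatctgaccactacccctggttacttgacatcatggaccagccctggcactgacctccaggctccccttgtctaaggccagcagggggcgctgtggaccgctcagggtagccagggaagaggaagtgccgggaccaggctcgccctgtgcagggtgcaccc
Rab31: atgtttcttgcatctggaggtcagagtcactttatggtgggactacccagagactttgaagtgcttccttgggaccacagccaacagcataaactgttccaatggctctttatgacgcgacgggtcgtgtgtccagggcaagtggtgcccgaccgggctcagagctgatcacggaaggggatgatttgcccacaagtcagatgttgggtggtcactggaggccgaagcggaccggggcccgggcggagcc
In Rab20 the E-box lay 46 to 41 bases before the start. Over the full window of 300 bases, which runs on past the start, Rab20 and Rab31 held 1 GC box each and Rab32 held 0. The E-box occurred in 5 of the 40 windows found for 30 members (12.5%; Rab20, Rab21, Rab23, Rab24 and Rab5a), against 7.15% of all 32851 windows of that length in the table. Searched in the same way on both strands, the GC box occurred in 67.5% of the member windows and 35.7% of all, the AP-1 motif (TGANTCA) in 5.0% and 7.81%, the NF-kB motif in 7.5% and 8.46%, and the core of the interferon-stimulated response element (GAAA, any 2 bases, GAAA) in 0% and 3.44%. The 32851 windows were not limited to genes measured on the array, as the member windows were, so the sets compared are unlike. These are matches of letters and say nothing of binding.

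Of the 2 lysosome-related organelle genes, Rab32 and Rab38, 1 rose (against 23% of all items called in any window). Rab32 serves the biogenesis of lysosome-related organelles such as melanosomes and takes part in the restriction of intracellular bacteria in macrophages. Its Control arrays ran from 595 over 676 to 745. The middle window arrays ran from 1600 over 1837 to 1935 with Lps, 1636 over 1728 to 1839 with Pam, 1480 over 1593 to 1674 with Cpg and 1407 over 1559 to 1662 with Grd. Pic arrays were lower, from 908 over 948 to 1305, but like the others all lay above the highest Control array.

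Rab32 rose by 1.42 ± 0.04 with Lps, 1.35 ± 0.04 with Pam, 1.23 ± 0.04 with Cpg and 1.20 ± 0.04 with Grd in the middle window (adjusted p from 2.4e-35 to 1.2e-31 in limma). In the late window it rose by 1.43, 1.30, 1.14 and 1.32 with the same ligands. With Pic it stood at 0.62 in the middle and 0.98 in the late window (adjusted p = 1.9e-19 and 9.9e-28), below the size of 1 that a call needs. The late Pic value was called with arrays centred on their median (1.06), without the 24 h arrays (1.11), without Pic 24 h replicate 2 (1.00) and without the arrays labelled replicate 2 (1.01). In the early window Rab32 was at 0.26 or less, and at 0.5 h it read 467 to 619 over the 10 arrays of all ligands, 9 of them below the lowest Control array. Both arrays of every ligand read above their 1 h values at 2 h and above their 2 h values at 4 h.

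Rab38, the partner of Rab32 in melanosome formation, was not called. Its largest difference was 0.79 in the middle window of Lps, where the mean was 151 at 4 h against 57.3 ± 7.98 in Control, and the late Lps value was -0.08. With quantile normalization the middle value was 1.03, and without the 8 h arrays 1.04, both called.

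**Figure D3:**
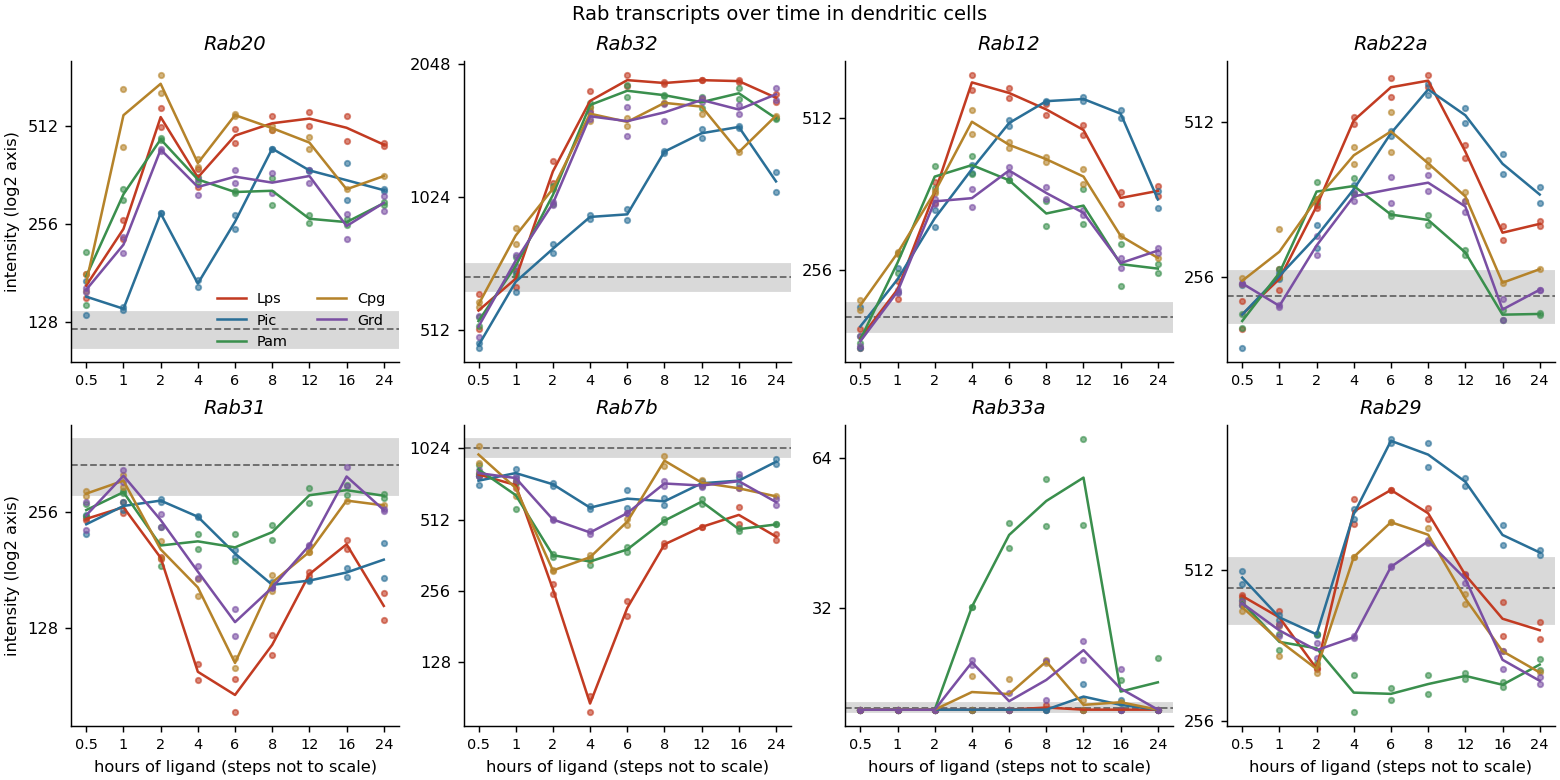
Intensity (log2 axis) of 8 Rab genes against hours of ligand (equally spaced steps, not to scale); points are single arrays, lines join the means of each ligand, and the dashed line and grey band are the mean and SD of the 8 Control arrays. Rab20, Rab32, Rab12 and Rab22a run above the band from 4 h on with Lps, Rab31 and Rab7b run below it, Rab33a leaves the limit of 20 mainly with Pam, and Rab29 separates Pic from Pam.

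Among the 7 genes of the late endosome, lysosome and autophagy, 1 rose, 1 fell and 5 were never called (against 23% of all items called). Rab12 directs transferrin receptor and other cargo from recycling endosomes to lysosomes and is a substrate of the kinase LRRK2. Its Control arrays ran from 187 over 207 to 226, against 518 over 569 to 622 in the middle window of Lps, 398 over 500 to 553 with Pic and 419 over 453 to 529 with Cpg. None of these groups overlapped Control. Rab12 rose by 1.46 ± 0.04 with Lps, 1.22 ± 0.04 with Pic and 1.15 ± 0.04 with Cpg (adjusted p = 5.8e-35, 4.7e-31 and 4.6e-30 in limma), while Pam and Grd stood at 0.86 and 0.85, with 6 of 6 arrays above the highest Control array.

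In the late window Rab12 was called with Pic (1.18 ± 0.04) and stood at 0.95 (Lps), 0.62 (Cpg), 0.49 (Grd) and 0.46 (Pam), not called. The highest means came at 4 h with Lps (580 and 622), at 12 h with Pic (562 and 552) and at 4 h with Cpg (476 and 529). With Lps both arrays at 16 h (365 and 346) lay below both at 12 h (473 and 496). The late Lps value was called against Control arrays of the same times (1.10), which also leaves out 16 h. It was called without the 16 h (1.03) or 24 h arrays (1.00) too.

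Rab7b is a GTPase of late endosomes and the trans-Golgi network that is known in macrophages to send TLR4 and TLR9 to lysosomes for degradation. Its Control arrays ran from 928 over 1017 to 1141. The 6 middle arrays of Lps ran from 78.8 over 217 to 406 and those of Pam from 328 over 383 to 514, all below the lowest Control array. Pic ran from 566 over 588 to 682, Cpg from 346 over 502 to 950 and Grd from 444 over 545 to 745, with 1 Cpg array inside the Control range and the rest of these 3 ligands' arrays below it.

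Rab7b fell by 2.38 ± 0.05 in the middle window of Lps (adjusted p = 8.4e-41 in limma), the largest fall of any member, and by 1.34 ± 0.05 with Pam (5.4e-29). The middle values of Cpg (-0.91), Grd (-0.86) and Pic (-0.76) were not called. Without the 8 h arrays those of Cpg (-1.28) and Grd (-1.04) were called, and Cpg also against Control arrays of the same times (-1.02). With Lps the 2 arrays read 273 and 247 at 2 h, 78.8 and 92.4 at 4 h, 201 and 233 at 6 h and 406 and 398 at 8 h. With Cpg they read 309 and 315 at 2 h and were at 950 and 865 by 8 h. In the late window of Lps, at 421 over 476 to 578, Rab7b stood at -1.09 ± 0.05, which was called, and its rise from the middle to the late window of Lps, 1.29 ± 0.06, was the 1 call among 170 such comparisons (0.588%, against 3.63% of all items). A second probe set gave -1.82 with Lps and -1.15 with Pam in the middle window, both called, and -0.88 in the late window of Lps, not called. The late Lps call was lost with the mean of both (-0.99), and the rise from middle to late was lost without the 4 h arrays (0.70). In the early window Rab7b stood at -0.95 with Lps, -0.82 with Pam and -0.79 with Cpg. Without the 0.5 h arrays the values were -1.24, -1.08 and -1.13, all called. Comparison with Control arrays of the same times, which also leaves out 0.5 h, gave the same values.

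Rab7, the GTPase that brings late endosomes to fusion with lysosomes, was at 2514.6 to 3086.5 in Control and was not called in any window. Its late values were -0.86 (Lps), -0.76 (Cpg), -0.62 (Grd), -0.50 (Pam) and -0.42 (Pic), with every late array below the lowest Control array. A second probe set stood between -0.46 and -0.02 in the late window. Rab9, which returns mannose 6-phosphate receptors from late endosomes to the Golgi, had its largest value, 0.75, in the middle window of Pic. In Control itself Rab9 changed with time in culture, from 441 at 0 h to 791 at 24 h. That change, 0.95 on the fitted line, had an adjusted p of 0.038 in limma but was under the size of a call, and Rab9 was the 1 gene of 34 at an adjusted p under 0.05 (against 12.3% of all items). Of the 34 genes 0 were called over time in Control (against 3.25% of all items), and 9 had an unadjusted p under 0.05 (26.5%, against 35.8%).

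Rab29, also called Rab7L1, sits at the trans-Golgi network and on stressed lysosomes and recruits LRRK2. Against Control it was not called in any window, but it differed between ligands. Control arrays ran from 404 over 447 to 589. In the middle window Pic arrays ran from 646 over 870 to 935, Lps from 631 over 696 to 740, Cpg from 544 over 602 to 638, Grd from 374 over 520 to 588 and Pam from 267 over 295 to 317. All Pic and Lps arrays lay above Control and all Pam arrays below it.

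Direct comparisons of ligands, which use no Control array in the contrast, called 11 of 340 pairs of a gene and 2 ligands in the middle window (3.24%, against 3.29% of all items) and 1 of 340 in the late window (0.294%, against 3.01%). They involved 4 genes, Rab29, Rab7b, Rab31 and Rab33a. Rab29 was higher with Pic than with Pam by 1.46 ± 0.06, higher with Lps than with Pam by 1.22 ± 0.06, and lower with Pam than with Cpg by -1.01 ± 0.06 (adjusted p = 4.5e-29, 1.5e-25 and 1.4e-21 in limma), with no overlap between the arrays. In the late window it was higher with Pic than with Pam by 1.00 ± 0.06 (4.7e-22). The last 2 lie at the size a call needs. The Pam and Cpg difference was lost without the 6 h arrays (-0.94), with a pseudocount of 16 (-0.97), and at -0.97 to -0.99 without the arrays labelled replicate 2 or any of Cpg 8 h replicate 1, Pam 6 h replicate 1, Pam 4 h replicate 2 and Pam 8 h replicate 2. The late difference was lost without the 12 h arrays (0.86), with a pseudocount of 16 (0.97), and at 0.98 to just under 1.00 without the arrays labelled replicate 1 or any of Pic 12 h replicate 1, Pic 24 h replicate 1, Pic 16 h replicate 2 and replicate 1 of Pam at 12 h, 16 h and 24 h. Rab5c, an early endosome GTPase, stood at 0.93 between Pic and Pam in the late window. It was called without the arrays labelled replicate 1 (1.29), Pic 16 h replicate 1 (1.11), Pam 12 h replicate 1 (1.00) or the 24 h arrays (1.19). Further middle window pairs were called without the 8 h arrays (Rab20, Pic and Cpg, -1.15) or the 4 h arrays. The latter were Rab9 between Pic and Pam (1.04) and Rab33a between Pam and Cpg (1.03) and Pam and Grd (1.12).

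Rab7b was lower with Lps than with each other ligand in the middle window, by -1.62 against Pic, -1.52 against Grd, -1.47 against Cpg and -1.04 against Pam, each ± 0.06 (adjusted p from 4.2e-31 to 4.3e-23 in limma). The arrays of Lps did not overlap those of Pic or Grd, but did overlap those of Cpg and Pam, since the 8 h arrays of Lps lay above the 4 h arrays of both. The difference from Pam was lost without the 4 h arrays (-0.58), with a pseudocount of 16 or quantile normalization (-0.97 each), with centred arrays (-0.92) and with the mean of both probe sets (-0.86). Rab31 was lower with Lps than with Pic by -1.02 ± 0.07 and than with Pam by -1.11 ± 0.07 (1.0e-17 and 1.5e-19), with no overlap. Both were lost with centred arrays (-0.94 and -0.99), quantile normalization (-0.92 and -0.97) and without the arrays labelled replicate 2 (-0.92 and -0.93). The difference from Pic was also lost with a pseudocount of 16 (-0.92), without the 4 h (-0.86) or 6 h arrays (-0.92), and without Lps replicate 2 at 4 h (-0.99), 6 h (-0.97) or 8 h (-0.99).

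**Figure D4:**
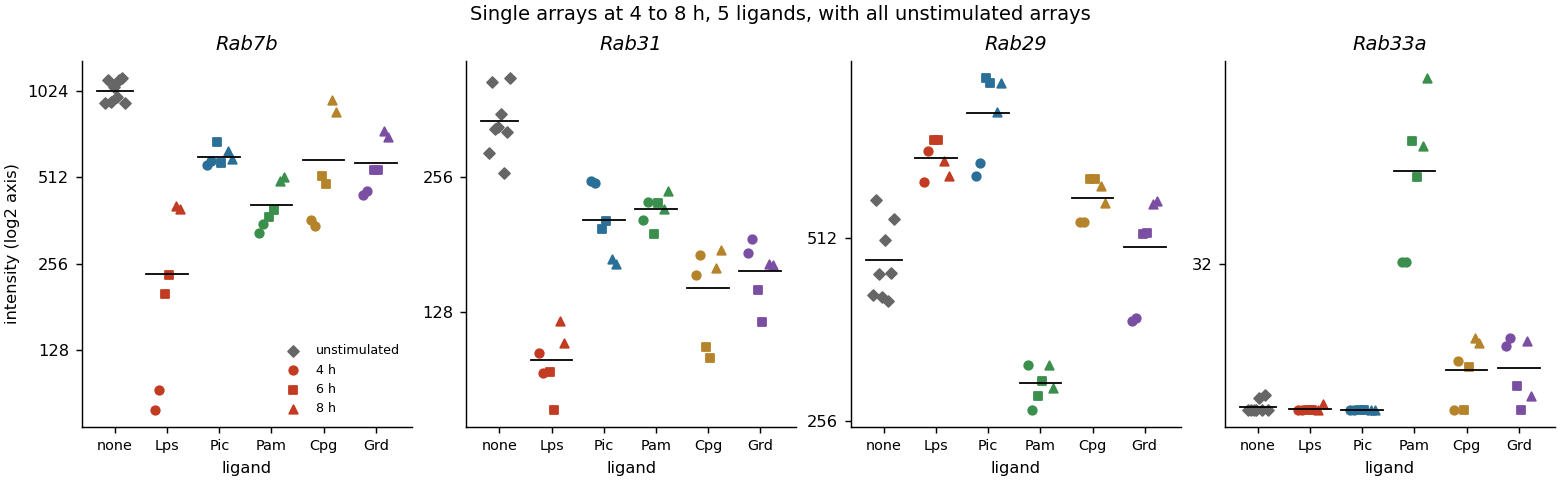
Intensity (log2 axis) of Rab7b, Rab31, Rab29 and Rab33a on single arrays at 4, 6 and 8 h (marker shapes) for 5 ligands, beside the 8 Control arrays of all times (grey diamonds, labelled none); black lines are means. Rab7b and Rab31 are lowest with Lps, Rab29 is highest with Pic and lowest with Pam, and Rab33a is highest with Pam.

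Among the 8 genes of the endoplasmic reticulum and Golgi, 1 rose (against 23% of all items called in any window). The other 7 (Rab1b, Rab2a, Rab2b, Rab6a, Rab18, Rab33b and Rab43) were never called. Rab33a is a Golgi-associated GTPase known from vesicle transport in growing axons. It was at the limit of 20 on 6 of 8 Control arrays and at 20.8 and 21.0 on the others, and it was above the limit on 30 of 96 arrays in all. With Pam both arrays read 32.2 at 4 h, 47.5 and 42.3 at 6 h, 46.8 and 58.3 at 8 h, and 47.0 and 70.1 at 12 h, before 22.9 and 20.6 at 16 h. The 6 middle arrays of Pam thus all lay above Control, while Cpg and Grd reached 25.2 at most in that window, Lps 20.4 and Pic 20.

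Rab33a rose by 1.03 ± 0.05 in the middle window of Pam (adjusted p = 7.6e-25 in limma), and stood at 0.57 in the late window, where the 2 arrays of 12 h were the highest. It was lower with Lps and with Pic than with Pam by -1.04 ± 0.05 in each case (8.6e-24 and 5.0e-24). The gene passed the limit of measurement mainly through the Pam arrays, and a difference from a level at the limit understates the change. With a pseudocount of 16 the rise was 0.69, without the 8 h arrays 0.88, without the 6 h arrays 0.99 and without Pam 8 h replicate 2 0.98, none of them called. The differences between ligands were lost under the first (-0.70 for both), the second (-0.89 for both) and the last (-0.99 for both), and that of Lps and Pam also without the 6 h arrays (-0.99) and with centred arrays (-0.92).

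Rab33b, which acts in the Golgi and binds an autophagy complex, was low early and not called. It read 96.9 over 125 to 132 in Control, 54.5 over 68.9 to 85.6 in the early window of Lps and 56.5 over 68.0 to 86.9 with Pam, all below the lowest Control array. The early differences were -0.80 with Lps, -0.83 with Pam, -0.71 with Cpg, -0.53 with Pic and -0.27 with Grd, and the middle values lay between -0.03 and 0.22. The other ER and Golgi genes, Rab1b, Rab2a, Rab2b, Rab6a, Rab18 and Rab43, stayed under 0.5 in size in every window on the probe set used. Another probe set of Rab18 reached -0.67 in the early window of Pic. Another of Rab2a reached 0.59 in the middle window of Cpg, and neither was called.

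The recycling genes Rab4b, Rab11a, Rab11b and Rab15, which return cargo from endosomes to the cell surface, were never called (against 23% of all items called in any window), with differences from -0.32 to 0.44. At an unadjusted p under 0.05, which 61.6% of all window values of all items passed, 31 of their 60 window values did. The 4 genes of exocytosis and surface delivery, Rab8a, Rab8b, Rab10 and Rab13, were also never called (-0.52 to 0.69, against the same 23%). Of their values, 46 of 60 had an unadjusted p under 0.05 (against the same 61.6%). Rab10, which drives surface delivery of TLR4 in macrophages, is uncertain because its probe sets disagree. The probe set used stood at 0.21 with Lps and 0.55 with Pam in the middle and 0.69 and 0.68 in the late window. A second stood at 1.00 with Lps (not called), 1.05 with Pam, 1.12 with Cpg and 1.00 with Grd in the middle and at 1.47, 1.15, 1.29 and 1.22 in the late window, all called but the first. With the mean of its 3 probe sets the late Lps value was 1.01 and called.

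Of the genes with other or less studied roles, Rab23, Rab28 and Rab40c, 0 were called (against 23% of all items in any window). Of their window values, 31 of 45 had an unadjusted p under 0.05 (against 61.6% of all). Rab40c, which joins a ubiquitin ligase through its SOCS box, read 164 over 182 to 209 in Control. At 2 h it read 67.5 and 61.2 with Lps, 67.0 and 75.6 with Cpg, 86.9 and 80.2 with Pam, 115 and 106 with Grd, and 159 and 154 with Pic. The early differences were -0.79 with Cpg and -0.72 with Lps. Against Control arrays of the same times, which leaves out 0.5 h, they were -1.13 and -1.03, both called. Without the 0.5 h arrays, against all Control arrays, the Cpg value was -1.09 and called.

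Regulators and effectors of Rab proteins were read from a list of exchange factors, GTPase-activating proteins and effectors. Of 111 genes listed, 55 had a probe set with 1 gene name and 52 were measured. Of these, 15 (28.8%, against 23% of all items) were called in at least 1 window, 8 higher and 7 lower, and 37 never were. The 4 largest rises were Rilpl1, Appl1, Lrrk2 and Inpp5b. Rilpl1, whose product binds LRRK2-phosphorylated Rab proteins, lay at the limit of 20 in all 8 Control arrays. It ran from 193 over 333 to 530 in the middle window of Pic. The window mean rose by 3.89 ± 0.08 (adjusted p = 7e-43 in limma), which understates the change because Control lay at the limit. This probe set passed the limit, and was kept as the brighter of 2, through ligand arrays alone. Its call is thus not independent of that choice, and the same holds for its share in the 8 called higher. A second probe set of Rilpl1 stood at 0.82 and was not called.

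Appl1, a Rab5 effector of early endosomes, ran from 89.7 to 122 in Control and from 444 over 550 to 614 in the middle window of Lps, a rise of 2.30 ± 0.06 (adjusted p = 5.5e-39 in limma). Lrrk2, the kinase that phosphorylates several Rab proteins including Rab10, Rab12 and Rab29, rose by 2.15 ± 0.08 in the late window of Lps, to 344 over 461 to 533 from 77.2 to 134 (adjusted p = 1.1e-30). Inpp5b, an inositol phosphatase bound by Rab proteins, rose by 1.74 ± 0.04 in the middle window of Lps, to 1850 over 2340 to 2590 from 550 to 752 (adjusted p = 1e-37). None of these ligand arrays overlapped the Control arrays.

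The 4 largest falls were Rab11fip5, Mical1, Rab3il1 and Dennd4c. Rab11fip5, a Rab11 effector of recycling endosomes, fell by 2.13 ± 0.13 in the middle window of Lps, to 21.2 over 30.0 to 40.5 from 94.0 to 240.0 in Control. Mical1, an actin-oxidising enzyme that binds Rab proteins, fell by 2.06 ± 0.09 in that window, to 41.7 over 49.0 to 62.1 from 154 to 287, and its second probe set fell by 2.29. Rab3il1, an exchange factor for Rab8, fell by 1.61 ± 0.10 in the late window of Lps, to 22.1 over 23.8 to 28.3 from 62.0 to 97.9. Dennd4c, an exchange factor for Rab10, fell by 1.57 ± 0.13 in the middle window of Lps, to 25.4 over 48.6 to 52.8 from 84.9 to 204. Adjusted p in limma ran from 2e-27 for Mical1 to 1.5e-16 for Dennd4c, and no Lps array of these windows overlapped Control.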

How the data were processed

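Per the labels' protocols, biotin-labelled total RNA was run on Affymetrix mouse HT arrays. The deposited values are intensities of 18858 probe sets on a linear scale with a lower limit of 20. The submitters' processing notes name RMA, and its version and the step that set the limit are not given in the sources used here. Between 33.1% and 34.6% of an array's probe sets lay at the limit, and the number of arrays limits the precision. Names came from the platform's annotation, where 15044 probe sets had 1 symbol, 257 several and 3557 none, and 15024 were matched to the RefSeq table of GRCm38.p6. The 4409 probe sets at 20 on all arrays were left out, and the brightest probe set per gene was kept. Values were analysed as log2(value + 1), a scale that understates changes of dim genes, with limma 3.58.1 in R 4.3.3: 1 mean for each of 45 ligand and time groups and 1 for Control, 50 residual degrees of freedom, empirical Bayes, two-sided tests, Benjamini-Hochberg adjustment over all items in each contrast. The model was tested on simulated data with planted changes and independent noise, which cannot show if the real arrays are independent. The members, gene lists and rules were chosen with earlier results of these data known. Members called in any contrast, those with the largest rise or fall of a window, and the 4 largest regulator rises and falls were named. Rab5c, Rab7, Rab9, Rab10, Rab21, Rab38 and Rab40c were singled out after their values were seen. Alternatives changed the pseudocount, filter, normalization, probe sets, Control, times and replicates.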

Additional observations from a re-analysis of the deposited data

Results flagged for a closer look

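In Control, Rab34 read 51.5 at 24 h, where the other 7 arrays lay between 27.4 and 34.7. Rab34 is a GTPase of the Golgi and of lysosome positioning. It was the 1 gene of 34 in which a Control array stood this far from the rest, and chance alone marks about 1 group in 20.

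Differences between ligands, or between windows of 1 ligand, passed the test of the difference itself in 13 cases, all with adjusted p of 1.0e-17 or less in limma. For Rab7b the Lps middle window differed from Pic by -1.62, Grd by -1.52, Cpg by -1.47 and Pam by -1.04, and the late from the middle Lps window by 1.29. For Rab31 Lps differed from Pam by -1.11 and from Pic by -1.02. For Rab29 the middle differences were 1.46 (Pic and Pam), 1.22 (Lps and Pam) and -1.01 (Pam and Cpg), and the late one 1.00 (Pic and Pam). For Rab33a Lps and Pic each differed from Pam by -1.04. Plate place cannot be told apart from ligand in these differences.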

How the results depend on the processing

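Over all alternatives to the 48 called differences, 1323 values kept their direction and call, 64 lost the call and 0 reversed. Of the 48 differences, 17 lost the call in at least 1 setting. Many of these values come from fits without 1 of the 96 arrays, which differ little from the main fit. The cause was not tested where a value moved, other than by construction. Early higher calls went from 4 to 1 without 2 h. Early lower calls went from 0 to 4 without 0.5 h (2.35%, against 0.823% of all items) and 1 without 1 h. They went to 5 with Control of the same times (2.94%, against 0.368%). The setting with Control of the same times also leaves out the ligand arrays of 0.5 h and 16 h. Late lower calls went from 1 to 2 with quantile normalization, without 12 h or without 16 h, and to 0 with the mean of probe sets. They went to 3 with a linear Control trend and to 3 with Control of the same times (1.76%, against 4.67% of all items). Counts given here without a share of all items are not read as results about the Rab genes. With every symbol that starts with Rab and a digit, lower calls were 14 (7.37%, against 4.89%) in the middle and 11 (5.79%, against 3.5%) in the late window. With adjusted p alone, calls numbered 23 (higher) and 71 (lower) for 0.5 to 2 h, 76 and 50 for 4 to 8 h, and 61 and 47 for 12 to 24 h. Calls between ligands in the middle window went from 11 to 6 with a pseudocount of 16 and 7 with centring. Late ones went from 1 to 0 with a pseudocount of 16 or without 12 h and to 2 without 24 h. Late against middle calls went from 1 to 2 with centring, quantile normalization or without 8 h, and to 0 without 4 h. Leaving out single arrays gave 0 to 2 late calls between ligands (0 without Pic 12 h replicate 1, Pic 24 h replicate 1, Pic 16 h replicate 2, Pam 16 h replicate 1 or Pam 24 h replicate 1, and 2 without Pic 16 h replicate 1) and 1 to 2 late lower calls (2 without Control replicate 8, at 24 h). Differences between replicates 1 and 2 correlated between groups with a median of 0.00758 (-0.328 to 0.349), and 17.4% of group pairs passed 0.1. Replicate numbers thus showed no shift shared by all groups, but a pairing within single ligands was not tested. A replicate block left the counts of calls at 4, 0, 15, 5, 10, 1, 11, 1 and 1. Centring moved the median of all items by up to 0.19, in the Lps middle window, and then 98 member pairs (57.6%, against 41.1% of all items) were higher and 31 (18.2%, against 32.8%) lower at an adjusted p under 0.05 alone. The floor of 20 limits what can be measured for Rab33a and Rab15.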
